A study of Mus musculus with 8 samples.

Results

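The p53 pathway and the Ink4/Arf locus were followed through 10 genes in 8 clones of mouse induced pluripotent stem cells (iPSCs). The genes are *Trp53*, *Mdm2*, *Cdkn1a*, *Ccng1*, *Sesn2*, *Bax*, *Bbc3*, *Pmaip1*, *Cdkn2a* and *Cdkn2b*, chosen by name out of 21427 gene symbols in the table. The deposited RNA-seq counts are given per RefSeq transcript record, and a gene with several records is represented by its most abundant record on average. The 4 TKO clones (35, 37, 47 and 48) came from embryonic fibroblasts (MEFs) of *Miwi*-/- *Mili*-/- *Miwi2*-/- embryos, which lack all mouse PIWI proteins, the partners of piRNAs in the germline. The 4 Ctrl clones (33, 34, 41 and 43) came from control MEFs, described in the methods as triple heterozygous and in the legends as wild type or heterozygous littermates. All MEFs carried an Oct4-GFP reporter and were reprogrammed with retroviruses for OCT4, SOX2, KLF4 and c-MYC, and the colonies were grown on MEF feeders inactivated with mitomycin C. Each library is 1 clone, and the labels do not say which clones share an embryo or a culture, so p-values measure the spread between these clones. Each genotype has 2 clones numbered in the forties and 2 in the thirties, called clone series here. What the numbers record is not given in the sources used here.

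The transcription factor p53, encoded by *Trp53*, is stabilised after DNA damage or oncogene activity and switches on genes that halt the cell cycle or start apoptosis. MDM2 marks p53 for degradation and is itself induced by p53. The Ink4/Arf locus holds *Cdkn2a*, which encodes INK4A (p16) and ARF (p19) from separate first exons, and *Cdkn2b*, which encodes INK4B (p15). ARF blocks MDM2, whereas INK4A and INK4B inhibit the cyclin D kinases CDK4 and CDK6. In fibroblasts both arms limit growth in culture and slow reprogramming, and the Ink4/Arf locus is kept silent in pluripotent cells.

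Total counts ran between 24593995 and 52457455 in TKO libraries and between 8983203 and 24688324 in Ctrl libraries, with the shallowest library in Ctrl 33. Among the targeted genes, *Piwil2* (*Mili*) had between 3845 and 10080 normalized counts in TKO clones and between 758.5 and 1028 in Ctrl clones. The counts are not given per exon, so they do not test the deletion in *Mili*. *Piwil1* (*Miwi*) had at most 8 reads in a TKO library and at most 20 in a Ctrl library, and *Miwi2* was not analysed here. Of the 10 pluripotency markers, *Esrrb* had at most 3 reads in a library and the other 9 had at least 857. The rule for reads shared between records of a gene is not given in the sources used here. A low count of 1 record, as for *Esrrb*, is therefore not read as absence of the transcript. All 16 fibroblast and feeder markers had at least 1 read in every clone, and *Pdgfra* had only 1 in Ctrl 33. Their summed normalized counts were 30750, 28980, 59530 and 50780 in TKO 35, 37, 47 and 48, against 94680, 57920, 41510 and 45140 in Ctrl 33, 34, 41 and 43. The sum was highest in Ctrl 33 and lowest in TKO 35 and TKO 37. In bulk RNA, fewer cells of a type and less RNA per cell cannot be told apart.

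Of 152 median ratios, 1 for each of the 19 autosomes in each clone, 2 lay more than 0.2 from 0 on the log2 scale, where 0 is the mean of the 8 clones. Chromosome 7, which holds *Bax* and *Bbc3*, had a median of 0.30 in TKO 48. Chromosome 11, which holds *Trp53* and *Ccng1*, had a median of 0.31 in Ctrl 34. The other 150 lay between -0.13 and 0.09.

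**Figure D1:**
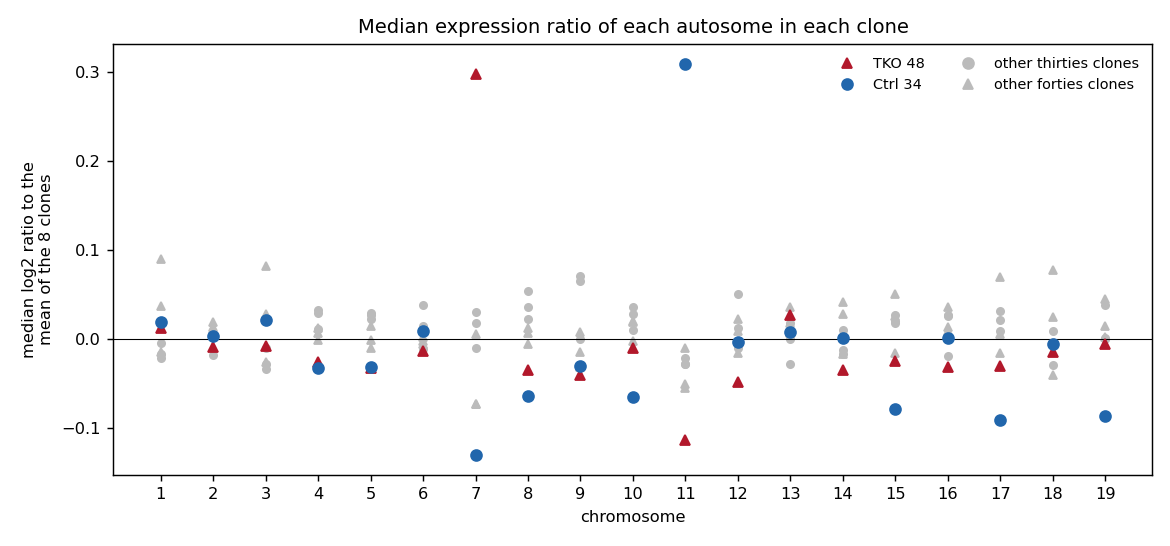
Median log2 ratio of each autosome's genes to the mean of the 8 clones (y axis) by chromosome (x axis), with a point per clone. TKO 48 stands at 0.30 on chromosome 7 and Ctrl 34 at 0.31 on chromosome 11, and the other points lie between -0.13 and 0.09.

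Promoter sequences from RefSeq (GRCm38.p6) were matched to 9 of the 10 genes, as 13 windows that run 250 bases before and 50 after an annotated start. Searched for the p53 decamer, the 10-base unit of the p53 response element, which reads alike on both strands, 5 genes had a match (*Trp53*, *Mdm2*, *Cdkn1a*, *Ccng1* and *Bax*). Of all 32851 windows in the table, 8.36% held a match, a share of windows and not of genes. The windows of *Cdkn1a*, *Bax* and *Ccng1* are shown because these p53 targets had higher counts in the forties clones, as described further on, with the decamer in capitals. The other *Cdkn1a* window held no match. *Mdm2* and *Trp53*, which also had a match, gave log2 changes of 0.02 and 0.06 between the series and were not called. A match is a run of letters and not a measured binding site.
Cdkn1a upstream window, chr17:29090729-29091028, + strand: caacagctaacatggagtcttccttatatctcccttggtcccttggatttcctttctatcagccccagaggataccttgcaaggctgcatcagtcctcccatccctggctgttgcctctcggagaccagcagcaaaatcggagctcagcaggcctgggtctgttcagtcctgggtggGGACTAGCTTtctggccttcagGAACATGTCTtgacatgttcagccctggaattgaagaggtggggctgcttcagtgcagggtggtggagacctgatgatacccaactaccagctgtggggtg
Bax window, chr7:45466849-45467148, - strand: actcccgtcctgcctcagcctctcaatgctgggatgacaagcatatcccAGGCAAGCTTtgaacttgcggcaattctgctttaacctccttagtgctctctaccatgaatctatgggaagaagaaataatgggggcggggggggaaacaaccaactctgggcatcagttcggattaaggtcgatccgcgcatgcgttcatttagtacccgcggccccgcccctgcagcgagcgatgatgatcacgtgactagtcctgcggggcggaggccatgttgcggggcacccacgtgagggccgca
Ccng1 window, chr11:40755237-40755536, - strand: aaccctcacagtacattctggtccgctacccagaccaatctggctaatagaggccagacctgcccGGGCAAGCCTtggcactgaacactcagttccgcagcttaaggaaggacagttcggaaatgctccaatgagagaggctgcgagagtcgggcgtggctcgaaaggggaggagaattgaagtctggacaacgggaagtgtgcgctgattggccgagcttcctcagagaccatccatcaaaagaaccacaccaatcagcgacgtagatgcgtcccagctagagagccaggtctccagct

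At the Ink4/Arf locus the windows differed in their number of CG pairs, the bases at which DNA is methylated in mammals. The upper of the *Cdkn2a* windows lies 12427 bases from the lower, the same distance as between the Arf and Ink4a starts in the mm9 annotation. It held 45 CG pairs, a number reached by 1.93% of all windows. The Ink4a window held 12, reached by 39.6%, and the *Cdkn2b* window 18, reached by 29.7%. At least 1 CG was present in 94.6% of windows, with a median of 7. The windows are shown with CG in capitals because the locus has 3 separate starts whose counts are compared below. The motif reads the same on both strands, and methylation was not measured.
Arf window, chr4:89294570-89294869, - strand: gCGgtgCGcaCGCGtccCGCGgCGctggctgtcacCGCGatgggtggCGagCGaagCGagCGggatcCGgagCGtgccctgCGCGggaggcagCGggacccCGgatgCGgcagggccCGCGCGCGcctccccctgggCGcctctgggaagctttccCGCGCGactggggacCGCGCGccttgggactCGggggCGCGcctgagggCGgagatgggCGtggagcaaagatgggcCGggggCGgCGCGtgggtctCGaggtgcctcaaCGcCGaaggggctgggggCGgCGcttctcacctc
Ink4a window, chr4:89282143-89282442, - strand: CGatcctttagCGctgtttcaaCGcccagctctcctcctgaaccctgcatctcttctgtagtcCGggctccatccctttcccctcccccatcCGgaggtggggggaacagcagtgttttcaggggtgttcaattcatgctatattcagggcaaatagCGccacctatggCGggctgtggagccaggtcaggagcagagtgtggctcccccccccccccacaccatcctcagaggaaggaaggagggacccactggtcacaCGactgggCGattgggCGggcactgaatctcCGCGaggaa
Cdkn2b window, chr4:89310983-89311282, - strand: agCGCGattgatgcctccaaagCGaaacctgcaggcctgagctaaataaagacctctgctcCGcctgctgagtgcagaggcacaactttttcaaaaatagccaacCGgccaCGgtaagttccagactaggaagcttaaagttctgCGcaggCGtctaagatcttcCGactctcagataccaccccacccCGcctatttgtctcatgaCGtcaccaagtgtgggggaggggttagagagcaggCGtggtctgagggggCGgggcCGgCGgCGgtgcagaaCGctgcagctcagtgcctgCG

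The first comparison asked whether TKO and Ctrl iPSCs differed in these genes. None of the 10 passed edgeR's quasi-likelihood test with Benjamini-Hochberg adjustment over 16235 records at an adjusted p under 0.05, where 0.24% of all records passed. At an unadjusted p under 0.05, 2 of the 10 passed, *Bbc3* and *Pmaip1*, beside 14.8% of all records. DESeq2 called the same 2 genes, with adjusted p = 0.0323 for *Bbc3* and 0.00349 for *Pmaip1*, beside 513 of the 16235 records. These were also the genes whose TKO and Ctrl clones did not overlap, *Bbc3* higher and *Pmaip1* lower in TKO, beside 8.33% of all records without overlap, 4.1% with TKO higher and 4.23% with TKO lower. The 2 genes encode BH3-only proteins that trigger mitochondrial apoptosis, and their counts moved in opposite directions.

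*Pmaip1*, which encodes NOXA, had 3006, 3176, 2580 and 2946 normalized counts in TKO 35, 37, 47 and 48, against 3535, 4863, 6064 and 4922 in Ctrl 33, 34, 41 and 43. Every TKO clone lay below every Ctrl clone, with the smallest gap between TKO 37 and Ctrl 33. The mean was 2927 ± 251 in TKO and 4846 ± 1034 in Ctrl (SD, n = 4 each). The exact two-sided permutation p = 0.0286 is the smallest that 4 clones against 4 allow, and it follows from the lack of overlap alone. The log2 fold change was -0.73 with a standard error of 0.15 (edgeR, adjusted p = 0.114). With clone series in the model it was -0.72 with a standard error of 0.14, and *Pmaip1* was the only one of the 10 genes called (adjusted p = 0.0268). Of all records 5.7% were called in this model, 3.1% as lower in TKO. This call was lost when any of TKO 35, 37 and 47 or Ctrl 41 and 43 was left out, and over all 8 omissions the adjusted p lay between 0.0106 and 0.0875. The gene lies on chromosome 18 (mm9, bases 66618258 to 66625204).

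*Bbc3*, which encodes PUMA, had 680.7, 510.6, 443.8 and 491.6 normalized counts in TKO 35, 37, 47 and 48, against 414.4, 250.5, 362.4 and 282.2 in Ctrl 33, 34, 41 and 43. The groups did not overlap, but TKO 47 and Ctrl 33 were close. The mean was 532 ± 103 in TKO and 327 ± 74.7 in Ctrl (SD, n = 4 each). As for *Pmaip1*, the exact two-sided permutation p = 0.0286 follows from the lack of overlap alone. The log2 fold change was 0.71 with a standard error of 0.20 (edgeR, adjusted p = 0.211), and 0.70 with clone series in the model (adjusted p = 0.0549). *Bbc3* lies at 16894965 to 16903554 on chromosome 7 (mm9), the chromosome raised in TKO 48, and without TKO 48 its change was 0.74 (edgeR, adjusted p = 0.126). The 31 records within 1 Mb had median log2 ratios of -0.03, -0.106, 0.081 and 0.348 in TKO 35, 37, 47 and 48. In Ctrl 33, 34, 41 and 43 these medians were 0.121, -0.18, -0.166 and -0.153. A regional part in the change of *Bbc3* was not tested.

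*Trp53* itself (chromosome 11, mm9, 69393861 to 69405375) had 171.5, 180.0, 184.3 and 249.7 normalized counts in TKO 35, 37, 47 and 48, against 224.8, 269.3, 212.9 and 220.1 in Ctrl 33, 34, 41 and 43. TKO 48 lay within the Ctrl range and the other TKO clones below it. The log2 fold change was -0.24 with a standard error of 0.18 (edgeR, adjusted p = 0.547). The highest Ctrl value was that of Ctrl 34, in which chromosome 11 was raised, and without it the change was -0.16 (adjusted p = 0.677). A second *Trp53* record had 83.2, 88.8, 134.2 and 164.2 normalized counts in TKO clones, against 97.5, 125.3, 181.7 and 183.4 in Ctrl clones, and it was higher in the forties by 0.75 on the log2 scale (adjusted p = 0.0112), whereas the main record gave 0.06 (adjusted p = 0.827). The rule for reads shared by 2 records is not given in the sources used here. Median counts per kilobase were 13.4 for the 1436 genes with 2 records and 174 for the 12814 genes with 1. The levels of *Trp53*, *Cdkn1a* and *Cdkn2a*, with 2 records each, are therefore not set against those of other genes.

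*Mdm2*, the main inhibitor of p53, had 9647, 9904, 6927 and 8469 normalized counts in TKO 35, 37, 47 and 48, against 7506, 6808, 8810 and 9830 in Ctrl 33, 34, 41 and 43. The genotypes overlapped, and the order of TKO and Ctrl was opposite in the clone series. Over all clones the log2 fold change was 0.08 with a standard error of 0.15 (edgeR, adjusted p = 0.806). Within the forties it was -0.28 with a standard error of 0.12 (adjusted p = 0.227), with -0.14 without TKO 47 and -0.43 without TKO 48. Within the thirties it was 0.45 with a standard error of 0.12 (adjusted p = 0.0382). The thirties value lay between 0.38 and 0.52 without a clone, and its call was lost in 5 of these 8 fits. The difference between the series, forties minus thirties, was -0.73 with a standard error of 0.16 and did not pass (adjusted p = 0.0659). The gene spans bases 117125944 to 117147814 of chromosome 10 (mm9).

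**Figure D2:**
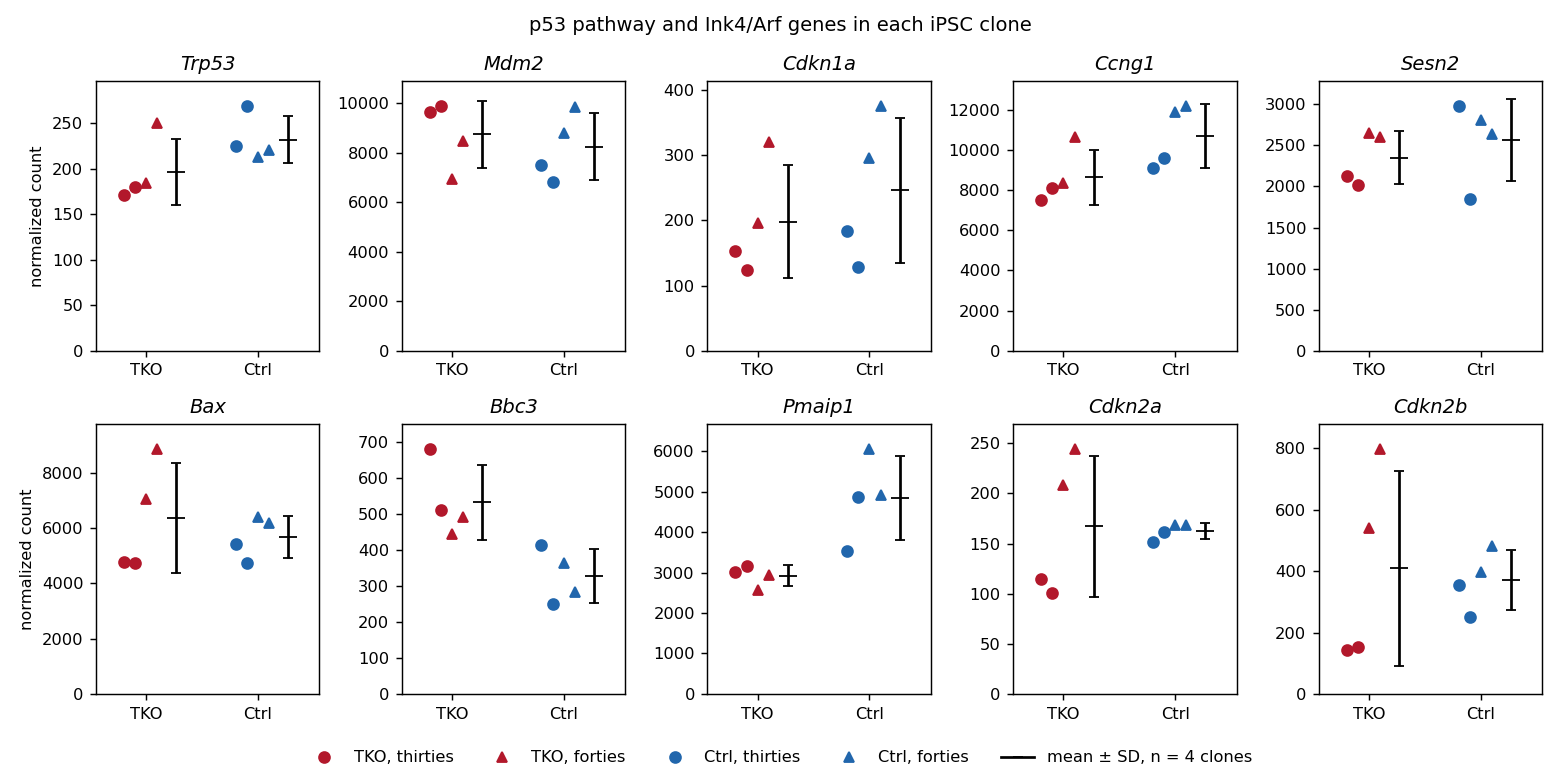
Normalized counts (y axes, starting at 0) of the 10 genes in TKO and Ctrl clones, with circles for thirties and triangles for forties clones and bars for mean ± SD (n = 4). TKO and Ctrl do not overlap for *Bbc3* (443.8 to 680.7 in TKO, 250.5 to 414.4 in Ctrl) and *Pmaip1* (2580 to 3176 in TKO, 3535 to 6064 in Ctrl) and overlap for the other 8 genes.

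Among the targets that act on growth or stress, *Sesn2*, which encodes a stress sensor that restrains mTORC1, had between 2016 and 2651 normalized counts in TKO clones and between 1846 and 2985 in Ctrl clones. Its log2 fold change was -0.13 with a standard error of 0.16 (edgeR, adjusted p = 0.722). *Ccng1*, which encodes cyclin G1, had 7482, 8108, 8338 and 10630 normalized counts in TKO 35, 37, 47 and 48, against 9082, 9580, 11870 and 12210 in Ctrl 33, 34, 41 and 43. Within each series both TKO clones were below both Ctrl clones. The change of *Ccng1* was -0.31 with a standard error of 0.14 (edgeR, adjusted p = 0.34), and -0.30 with clone series in the model (adjusted p = 0.0714).

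The second comparison set forties against thirties clones, with genotype in the model. Of the 10 genes, 4 were called higher in the forties by edgeR's quasi-likelihood test, *Cdkn1a*, *Cdkn2b*, *Bax* and *Ccng1*, and none lower. Of all records 19.4% were called, 9.84% higher and 9.56% lower. For *Cdkn1a*, *Cdkn2a*, *Cdkn2b* and *Bax* every forties clone was above every thirties clone, beside 16.1% of all records without overlap and 8.35% without overlap in this direction. Without TKO 35 or without TKO 37 only *Cdkn1a* was called.

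*Cdkn1a* encodes p21, the CDK inhibitor through which p53 halts the cycle in G1. It had 195.3, 319.8, 294.9 and 376.0 normalized counts in TKO 47, TKO 48, Ctrl 41 and Ctrl 43, against 152.2, 123.6, 184.2 and 128.2 in TKO 35, TKO 37, Ctrl 33 and Ctrl 34. Both genotypes showed the order, and TKO 47 was close to Ctrl 33. The log2 fold change of forties over thirties was 1.01 with a standard error of 0.20 (edgeR, adjusted p = 0.00987), and the call held without each clone in turn (highest adjusted p = 0.0419). Between genotypes the means were 198 ± 86.6 in TKO and 246 ± 111 in Ctrl (SD, n = 4 each), with a log2 fold change of -0.33 and a standard error of 0.38 (edgeR, adjusted p = 0.70). It was -0.0447 without Ctrl 43 (adjusted p = 0.98) and -0.66 without TKO 48 (adjusted p = 0.297). The gene lies at 29227924 to 29237667 on chromosome 17 (mm9). A second *Cdkn1a* record, with at most 52.98 normalized counts in a clone, gave a change between the series of 0.71 (adjusted p = 0.0925).

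*Bax*, which encodes the pore-forming effector of mitochondrial apoptosis, had 7046, 8881, 6411 and 6196 normalized counts in TKO 47, TKO 48, Ctrl 41 and Ctrl 43, against 4784, 4729, 5415 and 4759 in TKO 35, TKO 37, Ctrl 33 and Ctrl 34. The highest value was that of TKO 48, in which chromosome 7 was raised. Forties over thirties gave 0.53 with a standard error of 0.11 on the log2 scale (edgeR, adjusted p = 0.0122), and 0.41 without TKO 48 (adjusted p = 0.0179). The call was lost without TKO 35 or TKO 37, with adjusted p = 0.0557 and 0.0531. Between genotypes the log2 fold change was 0.16 with a standard error of 0.20 (adjusted p = 0.73), and -0.05 without TKO 48 (adjusted p = 0.885). *Bax* lies at 52717065 to 52722268 on chromosome 7 (mm9).

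*Ccng1* gave 0.33 with a standard error of 0.088 on the log2 scale for forties over thirties (edgeR, adjusted p = 0.0296). The gene lies at 40562054 to 40568813 on chromosome 11 (mm9), and the highest thirties clone, Ctrl 34, lay above TKO 47. The call was lost in 6 of the 8 fits that left out a clone, with the highest adjusted p at 0.103. *Sesn2*, at 132047947 to 132066416 on chromosome 4, gave 0.26 (adjusted p = 0.186). It was 0.43 without Ctrl 33 (adjusted p = 0.00925), the only omission with which it passed, and 0.15 without Ctrl 34 (adjusted p = 0.311).

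The Ink4/Arf locus lies on chromosome 4. The record used for *Cdkn2a* has the length of the Arf transcript, 929 bases, and its first exon of 286 bases lies at 88940238 to 88940523 (mm9, - strand). A second record has the length of the Ink4a transcript, 850 bases, and its first exon of 207 bases lies at 88927890 to 88928096. Exons 2 and 3 are shared, at 88922549 to 88922889 and at 88920377 to 88920678. Of the 50-base windows in these transcripts 283 are particular to Arf, 204 to Ink4a and 597 are shared. Split evenly, shared reads alone would give the Ink4a record at least 51.3% of the Arf count, but it held between 3.85 and 17.3%, so shared reads were not split in this way and the share of each transcript is uncertain.

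The Arf record had 114.9, 100.4, 208.4 and 244.5 normalized counts in TKO 35, 37, 47 and 48, against 151.7, 161.3, 168.2 and 168.1 in Ctrl 33, 34, 41 and 43. The Ctrl clones were close together, whereas TKO 35 and 37 lay below all of them and TKO 47 and 48 above. The mean was 167 ± 70.4 in TKO and 162 ± 7.80 in Ctrl (SD, n = 4 each). The log2 fold change was 0.03 with a standard error of 0.29 (edgeR, adjusted p = 0.97). Forties over thirties gave 0.61 with a standard error of 0.21 (adjusted p = 0.0687).

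The Ink4a record held few reads, 10, 8, 36 and 43 in TKO 35, 37, 47 and 48, against 9, 6, 27 and 15 in Ctrl 33, 34, 41 and 43. Scaled for depth these were 5.66, 3.86, 36.1 and 36.8 normalized counts in TKO, against 24.4, 8.64, 28.0 and 15.3 in Ctrl. TKO 35 and 37 were again lowest and TKO 47 and 48 highest. Forties over thirties gave 1.91 with a standard error of 0.52 on the log2 scale (edgeR, adjusted p = 0.0298). Within TKO the record gave 2.92 with a standard error of 0.46 (edgeR, adjusted p = 0.00327). Within Ctrl it gave 0.56 with 0.53 and was not called (adjusted p = 0.561).

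*Cdkn2b*, with 2 exons at 88956575 to 88956941 and 88952198 to 88953223, had 142.6, 154.4, 538.9 and 798.6 normalized counts in TKO 35, 37, 47 and 48, against 354.8, 249.1, 396.7 and 482.9 in Ctrl 33, 34, 41 and 43. As for Arf, the TKO clones lay on either side of all Ctrl clones, with means of 409 ± 318.5 in TKO and 371 ± 97.1 in Ctrl (SD, n = 4 each). Over all clones the change of TKO against Ctrl was 0.13 with a standard error of 0.52 (edgeR, adjusted p = 0.925). Forties over thirties gave 1.39 with a standard error of 0.32 (adjusted p = 0.0162), and the call was lost without TKO 35 or TKO 37 (adjusted p = 0.0717 and 0.0733).

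Within the genotypes the series were then compared. Between TKO 47 and 48 and TKO 35 and 37, 4 of the 10 genes were called, all higher, beside 23.9% of all records called and 13% called higher. *Cdkn2b* gave 2.17 with a standard error of 0.24 on the log2 scale (edgeR, adjusted p = 0.000819). *Cdkn2a* gave 1.07 with a standard error of 0.18 (adjusted p = 0.00451), *Bax* 0.74 with 0.12 (adjusted p = 0.00378) and *Cdkn1a* 0.91 with 0.27 (adjusted p = 0.041). In the fits without a clone *Cdkn2a* lay between 0.95 and 1.18 and *Bax* between 0.57 and 0.90, both lowest without TKO 48. The call of *Cdkn2a* was lost without TKO 37 and that of *Bax* without TKO 35. The *Cdkn1a* value was 0.50 without TKO 48 (adjusted p = 0.281), and its call was also lost without TKO 35, TKO 37, Ctrl 41 or Ctrl 43. Between Ctrl 41 and 43 and Ctrl 33 and 34 none of the 10 was called by edgeR, beside 6.58% of all records. At an unadjusted p under 0.05, 6 of the 10 passed, beside 24.8% of all records. DESeq2 called 2 of the 10, beside 1743 of the 16235 records. There *Cdkn1a* gave 1.13 (edgeR, adjusted p = 0.0527), *Cdkn2b* 0.56 (adjusted p = 0.189) and *Cdkn2a* 0.10 (adjusted p = 0.795).

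The change of TKO against Ctrl was also taken within each series, with 2 clones against 2. Within the forties *Pmaip1* was called, with -0.99 and a standard error of 0.16 (adjusted p = 0.0251), beside 1.98% of all records, 1.17% as lower. In the forties *Cdkn2b* gave 0.61 (edgeR, adjusted p = 0.185), with 0.29 without TKO 48 (adjusted p = 0.567), and *Cdkn2a* 0.43 (adjusted p = 0.233). Within the thirties 2 genes were called, *Mdm2* higher and *Cdkn2b* lower in TKO, beside 11.9% of all records, 4.83% higher and 7.05% lower. There *Cdkn2b* gave -1.005 with a standard error of 0.25 on the log2 scale (edgeR, adjusted p = 0.0316), and *Cdkn2a* -0.54 with 0.19 (adjusted p = 0.0951). In the fits without a clone *Cdkn2b* lay between -1.26 and -0.74. Its call was lost without Ctrl 33, and that of *Mdm2* without Ctrl 34, besides the omissions named below. Without a clone the count of genes called lay between 0 and 1 in the forties, where *Pmaip1* was called only without Ctrl 33 or Ctrl 34, and between 0 and 3 in the thirties, where it was 0 without TKO 35, TKO 37, Ctrl 41 or Ctrl 43.

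The difference between the series in the change of TKO against Ctrl, forties minus thirties, was called for none of the 10 genes by edgeR's quasi-likelihood test, beside 1.3% of all records. At an unadjusted p under 0.05, 5 of the 10 passed, beside 18.7% of all records. DESeq2 called 3 of the 10, beside 934 of the 16235 records. The difference was 1.61 with a standard error of 0.34 for *Cdkn2b* (edgeR, adjusted p = 0.0552) and 0.97 with 0.27 for *Cdkn2a* (adjusted p = 0.103). For 3 of the 10, *Mdm2*, *Cdkn2a* and *Cdkn2b*, TKO and Ctrl clones did not overlap in either series and the direction was opposite, beside 9.65% of all records. Without 1 clone *Cdkn2b* was called when that clone was TKO 47, Ctrl 33 or Ctrl 34 (adjusted p = 0.0274, 0.0389 and 0.0208) and *Mdm2* when it was Ctrl 33 (adjusted p = 0.0275). For *Pmaip1* the difference was -0.55 with a standard error of 0.23 (adjusted p = 0.238). It was -0.34 without Ctrl 33 (adjusted p = 0.259), and -0.79 and called without Ctrl 34 (adjusted p = 0.0468).

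**Figure D3:**
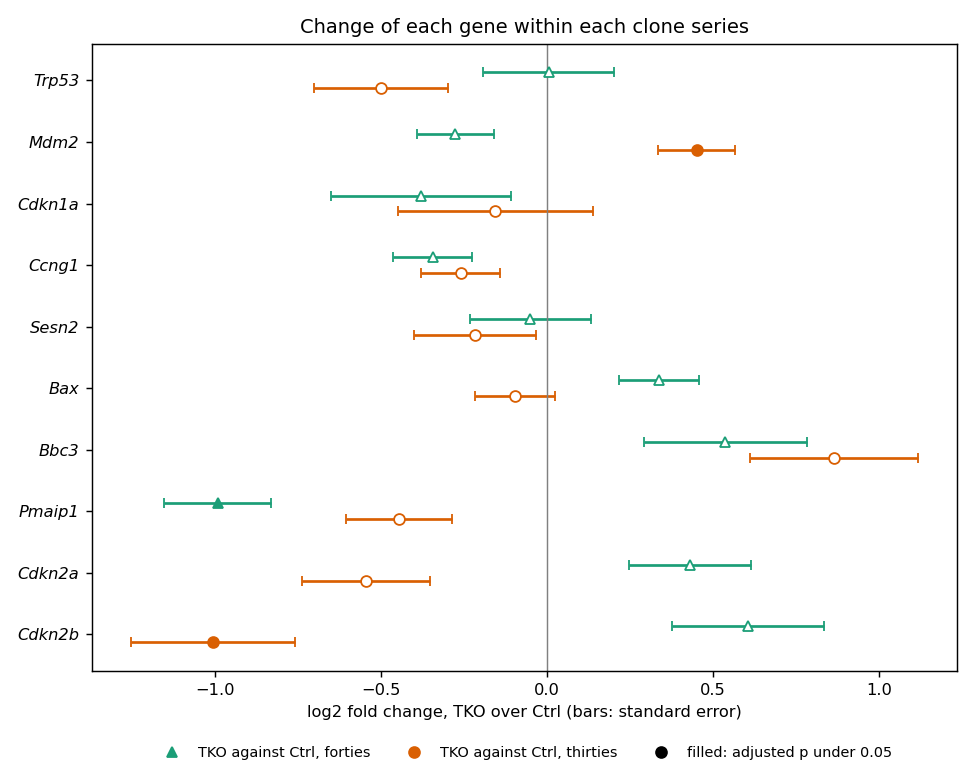
Log2 fold change of TKO over Ctrl (x axis, bars are standard errors) for each gene (y axis) within the forties and within the thirties, 2 clones against 2. *Mdm2* (-0.28 and 0.45), *Cdkn2a* (0.43 and -0.54) and *Cdkn2b* (0.61 and -1.005) lie on opposite sides of 0 in forties and thirties, and filled points mark an adjusted p under 0.05.

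The fibroblast and feeder markers moved between the same clones. In the thirties 11 of the 16 were called lower in TKO, where 7.05% of all records were, with a median log2 fold change of -1.31, beside -0.01 over all records. Between TKO 47 and 48 and TKO 35 and 37, 14 of the 16 were called higher, against 13% of all records, with a median of 1.67. For the difference between the series 9 were called higher, beside 1.03% of all records, among them *S100a4* with 1.94 (edgeR, adjusted p = 0.0197) and *Col6a1*, a collagen VI chain, with 1.39 (adjusted p = 0.0432). Both of these calls were lost without TKO 35, TKO 37, Ctrl 41 or Ctrl 43. Between forties and thirties 4 of 16 were called higher, beside 9.84% of all records, with a median of 0.76. Between Ctrl 41 and 43 and Ctrl 33 and 34 the markers were divided. There 3 of the 16 were called, all lower, among them *Col1a1* at -1.90 (adjusted p = 0.0076), and by sign 5 were above 0 and 11 below. The median of the 16 was -0.29, beside -0.01 over all records, whereas *Cdkn2b* gave 0.56 in the same comparison. The 5 above 0 were *Col6a1*, *S100a4*, *Prrx1*, *Pdgfra* and *Lum*, with values between 0.34 and 1.13. Of these, *Pdgfra* had at most 15 reads in a library. The part of fibroblast or feeder RNA in the *Cdkn2a* and *Cdkn2b* counts was not tested.

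**Figure D4:**
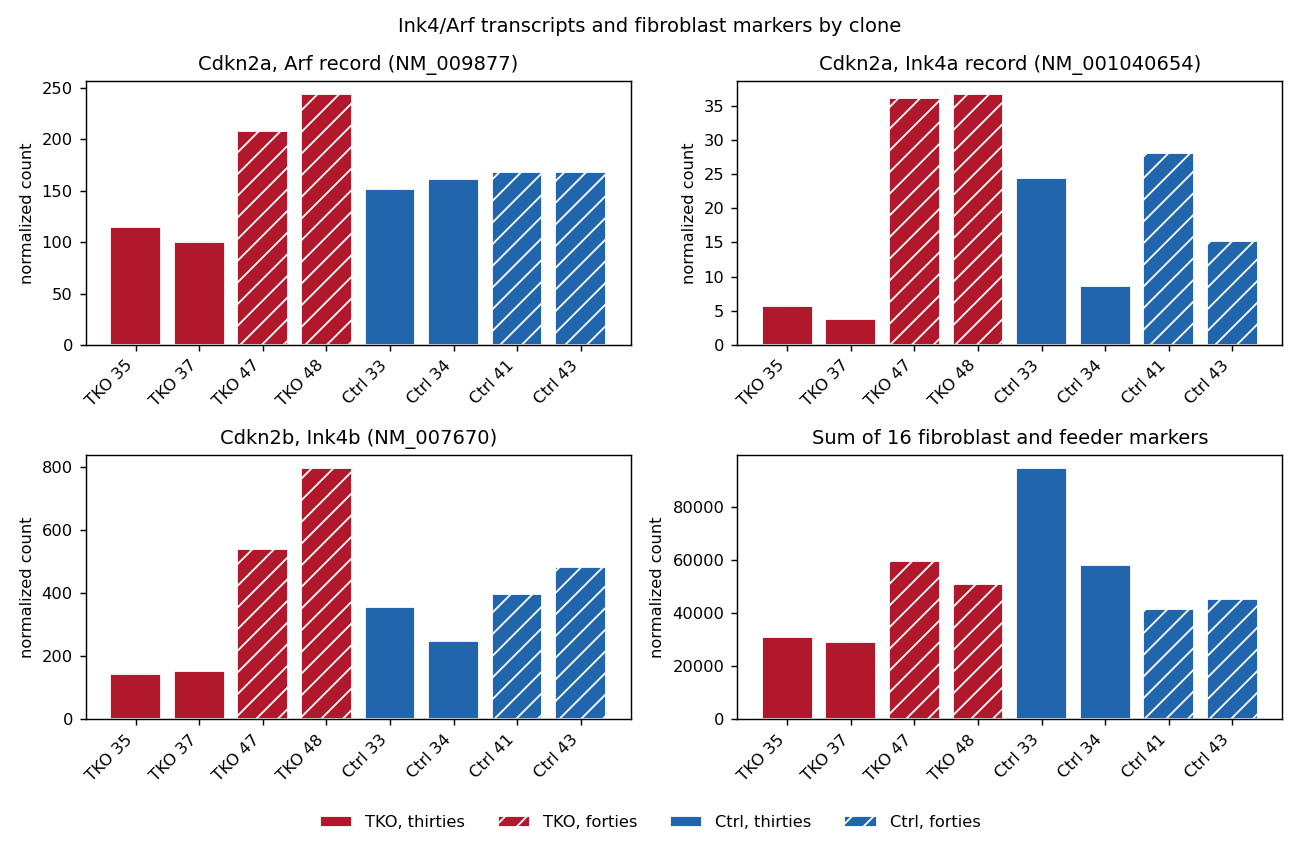
Normalized counts (y axes, starting at 0) of the Arf record, the Ink4a record and *Cdkn2b*, and the sum over 16 fibroblast and feeder markers, in each clone (x axes). TKO 47 and 48 are higher than TKO 35 and 37 in all 4 panels (Arf 208.4 and 244.5 against 114.9 and 100.4), and Ctrl 33 has the highest marker sum, 94680.

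The neighbour *Mtap*, which encodes an enzyme of methionine salvage, had 2664, 2723, 2821 and 4183 normalized counts in TKO 35, 37, 47 and 48, against 2836, 4016, 3128 and 2987 in Ctrl 33, 34, 41 and 43. TKO 47 was close to TKO 35 and 37, unlike the counts of *Cdkn2a* and *Cdkn2b*. *Dmrta1*, on the other side, had at most 17.3 normalized counts in a clone. Neither was called in any of these comparisons.

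Other genes of the pathway were taken from lists chosen alongside the 10 genes. Of 41 further p53 targets, 1 was called between TKO and Ctrl, beside 0.24% of all records. The median of the 41 was -0.03, beside -0.01 over all records. With clone series in the model 1 was called higher and 2 lower, beside 5.7% of all records called and 3.1% called lower. Among them were *Thbs1*, which encodes an angiogenesis inhibitor, lower at -1.05 (edgeR, adjusted p = 0.014), and *Dcxr*, which encodes a carbonyl reductase, higher at 0.61 (adjusted p = 0.0333). The *Dcxr* call was lost without TKO 35, 37 or 47 or Ctrl 41 or 43 (highest adjusted p = 0.123), and that of *Thbs1* without TKO 35 or TKO 37 (highest adjusted p = 0.0648).

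Between the series 9 of the 41 targets were called higher and 6 lower in the forties, beside 9.84% and 9.56% of all records, with a median of -0.08. The higher ones included the desmosome protein gene *Perp* at 1.12 (edgeR, adjusted p = 0.00161), the death receptor gene *Fas* at 1.44 (adjusted p = 0.00501), *Igfbp3* at 1.37 (adjusted p = 0.00206) and the adenylate kinase gene *Ak1* at 0.78 (adjusted p = 0.000882). The median over all records was -0.005. Within the forties 1 was called higher and 1 lower in TKO, beside 1.98% of all records called. Within the thirties 9 were called higher and 5 lower, beside 4.83% and 7.05% of all records.

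Of the 29 regulators and partners of p53, 27 were tested, without *Trp63* and *Trp73*, and none was called between TKO and Ctrl, with a median log2 fold change of -0.08. With clone series in the model *Ppp1r13b*, which encodes the p53 cofactor ASPP1, was higher in TKO at 0.76 (edgeR, adjusted p = 0.0101) and the DNA damage kinase gene *Atm* was lower at -0.38 (adjusted p = 0.0262). The *Atm* call was lost without TKO 35, 37 or 47 or Ctrl 41 or 43 (highest adjusted p = 0.102), and that of *Ppp1r13b* without TKO 35 or TKO 37 (highest adjusted p = 0.0615). Between the series 5 were called higher and 2 lower in the forties, beside the same 9.84% and 9.56% of all records. *Huwe1*, which encodes a p53 ubiquitin ligase, was among the higher at 0.49 (adjusted p = 0.00327). The methyltransferase gene *Setd7* was among the lower at -0.77 (adjusted p = 0.000691).

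None of the 23 regulators of the Ink4/Arf locus was called between TKO and Ctrl, with or without clone series in the model, and their median log2 fold change was -0.06. Between the series 4 were called higher and 3 lower in the forties, again beside 9.84% and 9.56%. *Ets1*, which encodes an activator of *Cdkn2a*, was higher at 1.45 (edgeR, adjusted p = 0.0145, and 0.0614 without TKO 37), and so was *Id1*, which encodes an inhibitor of ETS and bHLH factors, at 1.21 (adjusted p = 0.00997). The H3K27 demethylase gene *Kdm6b* was lower at -0.57 (adjusted p = 0.00593), as was the Polycomb methyltransferase gene *Ezh1* at -0.72 (adjusted p = 0.00622).

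Of 19 CDK inhibitor, cyclin and RB genes 18 were tested, without *Cdkn1c*, and none was called between TKO and Ctrl, with a median log2 fold change of 0.10. With clone series in the model the p27 gene *Cdkn1b* was higher in TKO at 0.55 (edgeR, adjusted p = 0.0419) and *E2f3*, which encodes an E2F activator, lower at -0.46 (adjusted p = 0.0475). Each of these calls was lost in 7 of the 8 fits that left out a clone, with the highest adjusted p at 0.156 for *Cdkn1b* and 0.17 for *E2f3*. The *Cdkn1b* call held only without TKO 48, as did that of *E2f3*. Cyclin D1, the partner of the kinases that INK4 proteins inhibit, had 1961, 2124, 8534 and 13850 normalized counts of *Ccnd1* in TKO 35, 37, 47 and 48, against 7365, 4925, 8091 and 10400 in Ctrl 33, 34, 41 and 43. TKO 35 and 37 were lowest and TKO 48 highest, as for *Cdkn2b*. Its difference between the series was 1.86 with a standard error of 0.35 and was called (adjusted p = 0.045), but not without TKO 35, TKO 37, TKO 48, Ctrl 41 or Ctrl 43 (highest adjusted p = 0.238).

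No gene among 18 other BCL2 family and apoptosome genes was called between TKO and Ctrl, with or without clone series in the model, and their median log2 fold change was 0.04. Between the series *Bok*, a BAX relative, was higher in the forties at 0.79 (edgeR, adjusted p = 0.00892) and so was the survival gene *Bcl2* at 1.00 (adjusted p = 0.0331). The *Bcl2* call was lost in 6 of the 8 fits without a clone, all but those without Ctrl 33 or Ctrl 34 (highest adjusted p = 0.133). The BH3-only gene *Bmf* was lower at -1.05 (adjusted p = 0.00421), as was the survival gene *Bcl2l2* at -0.70 (adjusted p = 0.0141, and 0.053 without TKO 47).

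Of 16 cell cycle genes that p53 represses through p21 and the DREAM complex none was called between TKO and Ctrl, with a median log2 fold change of 0.21 beside -0.01 over all records. Within the forties none was called, and within the thirties 10 were called higher in TKO and none lower, beside 4.83% and 7.05% of all records, with a median of 0.38. With clone series in the model the mitotic kinase gene *Plk1* was higher in TKO at 0.36 (edgeR, adjusted p = 0.0384), a call that held only without TKO 47 among the 8 fits without a clone (highest adjusted p = 0.146). Between the series *Aurkb*, an Aurora kinase gene, was lower in the forties at -0.52 (adjusted p = 0.00761), as was *Cdc25c*, the phosphatase gene of mitotic entry, at -0.67 (adjusted p = 0.0138, and 0.0519 without TKO 47).

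The genes whose pattern over the 8 clones was most like that of a gene were found among 12406, as the root mean square difference of centred log2 counts. For *Cdkn1a* they were *Flna* at 0.137, and *Zfp365* and *Fat1* at 0.138 each. For the Arf record they were *Ust* at 0.101, *Trib1* at 0.103 and *Tspan5* at 0.105. For *Mdm2* they included *Nde1* at 0.084 and *Tpmt* at 0.089. The root mean square of the gene's own centred log2 counts was 0.574 for *Cdkn1a*, 0.387 for the Arf record and 0.209 for *Mdm2*. The differences are therefore not on 1 scale across these genes. Filamin A, encoded by *Flna*, had 25380, 40290, 37280 and 40520 normalized counts in TKO 47, TKO 48, Ctrl 41 and Ctrl 43, against 18220, 16630, 26970 and 14050 in TKO 35, TKO 37, Ctrl 33 and Ctrl 34.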

How the data were processed

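RNA from 8 iPSC clones was sequenced as single-end TruSeq libraries. The authors mapped the reads with BWA (0.7.5a in the submitters' processing notes) to mm9 transcript sequences and deposited whole-number read counts for 27052 RefSeq records, without scaling or filter. The counting rule is not given in the sources used here. Symbols from RefSeq named 26321 records, and positions came from the mm9 GENCODE annotation. The filter asked for 5 or more reads in 4 or more of 8 libraries and left 16235 records. Normalized counts are counts divided by median-ratio size factors (0.369 to 2.07).

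Tests used the quasi-likelihood test of edgeR 4.0.16 in R 4.3.3 with Benjamini-Hochberg adjustment, on genotype alone, with clone series as a term, and on 4 groups of genotype and series. DESeq2 1.42.0 was an alternative, beside other scaling, no filter and each clone left out. Single genes were compared by an exact permutation test. The scripts were tested on simulated counts. No clones agreed within sampling noise (chi-square per degree of freedom at least 10.0).

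The members and gene lists were chosen with earlier results of these data known. Named genes were the 10 members, up to 4 called genes of each other list and comparison with the smallest p, or else its 2 most expressed, the neighbours *Mtap* and *Dmrta1*, and the 3 most similar genes (mean of at least 20 normalized counts) for *Cdkn1a*, *Cdkn2a* and *Mdm2*. *S100a4*, *Col6a1* and *Flna* were shown as examples from these. A few genes within this rule are not reported here.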

Additional observations from a re-analysis of the deposited data

Results flagged for a closer look

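In 3 of 84 groups of 4 clones a single clone stood far from the other 3, and chance gives about 1 in 20. These were *Trp53* in TKO 48 (249.7 normalized counts), *Thbs1* in TKO 48 (11390) and *Mtap* in TKO 48 (4183).

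The change of TKO against Ctrl differed between the clone series, forties minus thirties, by -0.73 for *Mdm2*, 0.97 for *Cdkn2a* and 1.61 for *Cdkn2b* on the log2 scale. Of 42 genes examined, these and *Col6a1* had TKO clones on opposite sides of the Ctrl clones in the series, 4 in all, beside 9.65% of all records. For the 3 genes named first the test of the difference did not pass (edgeR, adjusted p = 0.0659, 0.103 and 0.0552). It passed for *Ccnd1* at 1.86 (adjusted p = 0.045), *Col6a1* at 1.39 (adjusted p = 0.0432) and *S100a4* at 1.94 (adjusted p = 0.0197), and these calls were lost without TKO 35, TKO 37, Ctrl 41 or Ctrl 43, and that of *Ccnd1* also without TKO 48.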

How the results depend on the processing

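No paired analysis was made because the labels do not say which TKO and Ctrl clones came from the same litter. For TKO against Ctrl, edgeR called 39 records, DESeq2 513 and the model with clone series 926, and 0, 2 and 1 of the 10 genes. Where a group kept 1 clone, that clone is assumed to vary like the others. Leaving out each clone gave 15 to 86 records and 0 to 1 of the 10 genes, with *Pmaip1* called without Ctrl 33 (adjusted p = 0.0424). With clone series in the model the number of the 10 genes called was 1, against 2 without a filter on low counts, 3 with DESeq2 and 0 to 2 without a clone, when 91 to 1623 records were called, beside 926 and 2200 with DESeq2. For forties against thirties the records called were 3149, 1413 without a term for genotype and 1281 to 3816 without a clone, and the genes 4, with 1 to 5 without a clone. For the difference between the series the genes called were 0, with 2 without a filter, 3 with DESeq2 and 0 to 2 without a clone, when 1 to 1314 records were called, beside 211, 671 without a filter and 934 with DESeq2. Without a clone, 7 to 1483 records were called within the forties (322, with 732 without a filter and 1125 with DESeq2) and 27 to 3457 within the thirties (1928). They were 708 to 5540 between the TKO series (3877), with 2 to 6 of the 10 genes, and 63 to 2444 between the Ctrl series (1068, with 1608 without a filter and 1743 with DESeq2), with 0 to 3 of the 10 genes. There 2 of the 10 were called without a filter or with DESeq2 and 1 with counts summed per symbol.

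With clone series as a term the change of TKO against Ctrl turned to -0.0394 for *Cdkn2a* and -0.17 for *Cdkn2b*. Without a clone it ran between -0.21 and 0.22 for *Cdkn2a*, between -0.43 and 0.42 for *Cdkn2b* and between -0.0471 and 0.28 for *Bax*. Between the series it ran between -0.0894 and 0.17 for *Trp53*, between -0.0915 and 0.15 for *Mdm2* and between -0.0307 and 0.21 for *Pmaip1*. None of these 16 reversed values passed the test, out of 1189 values of single genes under alternatives, of which 994 kept direction and call, 138 lost the call and 41 gained it. The cause was not tested. The Ink4a record is limited by its few reads, 6 to 43 in a library, and by the unknown rule for reads shared with the Arf record.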
